A study of Schizosaccharomyces pombe with 26 samples.

Results

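The long intergenic tiles are features of a spotted array of intergenic regions (IGR) of the fission yeast *Schizosaccharomyces pombe* whose array name begins with longIGR, followed in nearly all cases by the name of a gene. The names of 125 features begin this way; 1 was left out by the rule that defines the set, which leaves 124. Another 4 (*alp4*, SPBC19C2.04c, SPBC8E4.03 and SPCC24B10.19c) carry the word Missing in their array name, and none of them rose above the 23.6th percentile of the other features in any channel of any array or in wildtype. The remaining 120 tiles are described here among 4949 measured IGR features, 4784 of which have no long label. A further 51 long features carry a plate number before the name, 44 of them measured, and do not meet the rule. Of the 120 tiles, 110 matched 1 gene of the RefSeq annotation of assembly ASM294v3 (48 on chromosome I, 45 on II and 17 on III), 3 matched several genes and 7 matched none. The sources used here do not give the length or position of the spotted DNA or the side of the gene on which it lies.

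The study asked where Med15 binds and how nucleosome density depends on Med15 and on Hrp1. Mediator is a large complex through which DNA-bound transcription factors act on RNA polymerase II, and Med15 belongs to its tail module. Hrp1 belongs to the CHD1 family of ATPases, which slide and space nucleosomes. Intergenic DNA of a compact yeast genome holds the promoters and terminators, and histone H3 is commonly low over active promoters and higher over DNA packed into nucleosomes. Chromatin immunoprecipitation (ChIP) recovers the DNA bound to a protein, and the recovered DNA and the input DNA of the same extract were hybridised to 1 array in different dyes.

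Med15-myc ChIP was measured in 3 samples of a strain with myc-tagged Med15, and H3 ChIP in 2 wildtype samples, 2 samples with the *med15* gene deleted (Δmed15) and 3 with the *hrp1* gene deleted (Δhrp1). All cultures were harvested during logarithmic growth in a rich glucose medium. The ChIP DNA was in Cy5 in Med15-myc 2, Δmed15 1 and Δhrp1 3, and in Cy3 in all others. Both wildtype samples are therefore of 1 dye orientation. No untagged strain was used here as a control for the myc antibody. For wildtype H3 the value table gives the ChIP channel only, so wildtype has an H3 signal and no ratio over input.

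Each tile has 2 spots, and the spots of a tile in the ChIP over input ratio correlated with r of 0.856 to 0.977 by array. The tiles were bright: their median intensity was 1.30 to 4.01 times that of the other features in input and 1.45 to 5.64 times in ChIP. All lie in print rows 20 and 21, in 36 of the 48 print grids and up to 10 to a grid. The 691 other features of those rows had median values between −0.20 and 0.35 on every array. The print grids themselves stood apart: in the H3 signal the grid medians of the other features spanned 1.82 to 4.13 log2 units by sample. Centring within grids was a step added after seeing the data.

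Tiles had high H3 signal in wildtype cells. On the deposited log2 scale, centred on the median of all IGR features, the median tile read 1.84 in wildtype 1 and 2.09 in wildtype 2, against −0.05 in both for the other features. By sample, 104 and 106 of the 120 tiles exceeded the median of the other features, and 63 tiles ranked above the 90th percentile on average over both samples. Centred within print grids the median tile read 1.86 and 2.17, and 82 tiles ranked above the 90th percentile. Input brightness moved with this result. Among the fifth of features brightest in input, 65 tiles had medians of 2.03 and 2.25 in the 2 samples, and 896 other features had 1.27 and 1.33. Within print grids these medians were 2.39 and 2.52 for tiles and 1.01 and 1.09 for the others. No tile was at the floor of the value table in any H3 sample. The plate-numbered long features were as high, with medians of 1.90 and 1.99.

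Most tiles also lay above the other features without *med15* and without *hrp1*. The median tile H3 signal was 2.03 and 1.99 in the Δmed15 samples and 2.48, 1.44 and 1.26 in the Δhrp1 samples, and 103 to 112 of the 120 tiles exceeded the median of the other features in each of these 5 samples. The Δhrp1 samples lay on both sides of the wildtype pair, and a difference of the tile medians between strains was not tested. The wildtype samples correlated with each other over the 120 tiles with r of 0.94, the Δmed15 samples with 0.90 and the Δhrp1 samples with 0.74 to 0.85. Wildtype correlated with the deletion samples with r between 0.34 and 0.67. Over all features the wildtype pair had r of 0.90 and the Δmed15 pair 0.91, and wildtype with the deletion samples 0.44 to 0.70. Centred within print grids, the range of wildtype with the deletion samples over the tiles became 0.53 to 0.80. Tiles on 1 array share a hybridisation, so these correlations are descriptions.

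**Figure D1:**
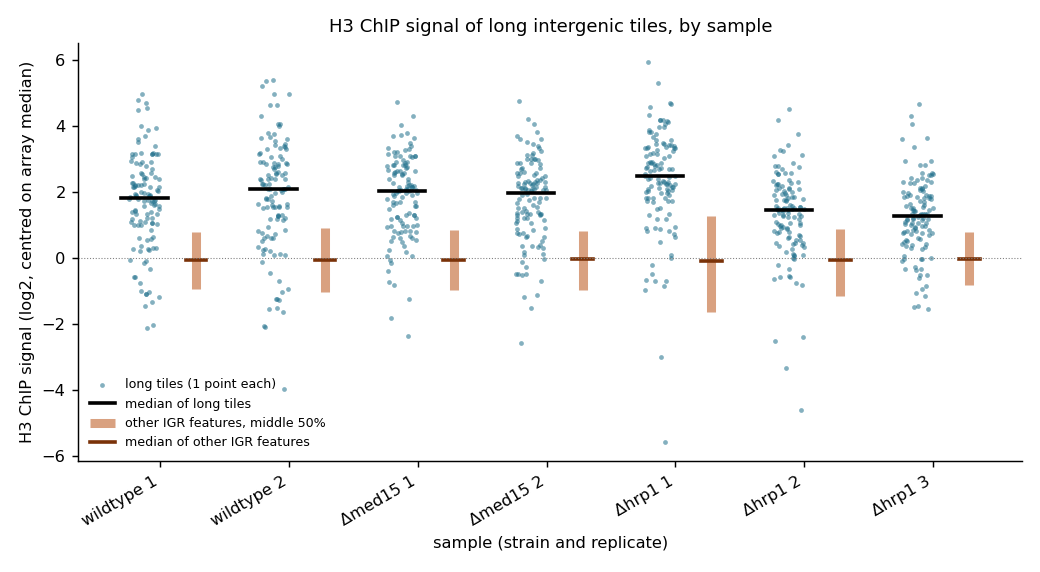
H3 signal (log2, each sample centred on the median of all IGR features) of the 120 tiles and of the other IGR features in the 7 H3 samples. Points are tiles, black lines their medians and orange bars the middle 50% of the other features. The tile medians lie between 1.26 and 2.48 in all 7 samples, while the other features have medians just below 0.

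The highest wildtype tile carries the name of SPAC1399.02, annotated as a transporter and neighbour of the uracil transporter gene *fur4*. It read 4.97 and 5.37, first of all IGR features. SPCC794.05c, which matched no current gene, read 4.80 and 5.39. The tile of *ste7*, which encodes an arrestin family protein of mating and meiosis, read 4.70 and 5.23. SPAC977.17, of the membrane channel (MIP) family, followed with 4.49 and 4.98. These 4 tiles stayed high in the deletion strains, at 2.55 to 5.32 over all 5 samples, and within print grids they read 3.66 to 4.54 in wildtype.

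The lowest wildtype tile was that of SPBC24C6.09c, a phosphoketolase family gene, with −0.99 and −3.99, so its 2 samples differed strongly. The tile of *pcs2* (SPAC3H1.10), which encodes phytochelatin synthase, read −2.11 and −2.08. SPCC18B5.02c read −2.03 and −1.28, and SPAC1F8.08, an uncharacterised gene, −1.45 and −1.52. The first 3 lay in print grids whose other features were low in wildtype as well, with grid medians from −1.12 to −2.29. Within their grids they read 0.06 and −1.74 (SPBC24C6.09c), −0.52 and −0.08 (*pcs2*), and −0.44 and 0.72 (SPCC18B5.02c). SPAC1F8.08 remained low there, at −1.16 and −1.15.

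Med15-myc over input was higher at the median tile than at other features in 2 of 3 samples as scanned and in all 3 after background correction. As scanned, the median tile had log2 ratios of 0.76, −0.10 and 0.57 in Med15-myc 1, 2 and 3, against −0.02, 0.01 and −0.04 for the other features. The sample below 0 is the one with ChIP DNA in Cy5, where the local background of the ChIP channel had a median intensity of 4891. The samples above 0 had high local background in the input channel instead, with medians of 2168 in Med15-myc 1 and 6462 in Med15-myc 3. Ratios as scanned in all of them therefore include background. After normexp background correction, which models signal above local background, the median tile read 0.57, 0.49 and 0.18, and 107, 102 and 75 of the 120 tiles lay above the median of the other features. Among features brightest in input the corrected medians were 0.44, 0.26 and 0.10 for tiles and −0.20, −0.36 and −0.28 for others.

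No tile passed the test of Med15-myc over input as scanned. limma found 0% of 4949 features at a Benjamini-Hochberg adjusted p below 0.05, with 3 tiles and 0.849% of features at an unadjusted p below 0.05. Over the 120 tiles the 3 samples correlated with r of 0.24, 0.15 and −0.17 as scanned, and with 0.48, 0.57 and 0.24 after background correction. With background correction 5 tiles passed as higher and 0 as lower (limma, Benjamini-Hochberg), beside 1.23% of all features called higher and 1.11% called lower. That is 4.17% of the tiles as higher. Centred within print grids as well, 13 tiles passed as higher and 0 as lower, beside 2.67% and 3.46% of all features. The background-corrected fit called 1 tile as higher (SPAC1F8.08) beside 0.404% of features without Med15-myc 1. It called 7 beside 1.82% without Med15-myc 2, and 3 beside 0.748% without Med15-myc 3. The fitted standard errors of all features lay between 0.350 and 0.405 in the background-corrected fit, so a tile's own spread between samples had little weight in its p.

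**Figure D2:**
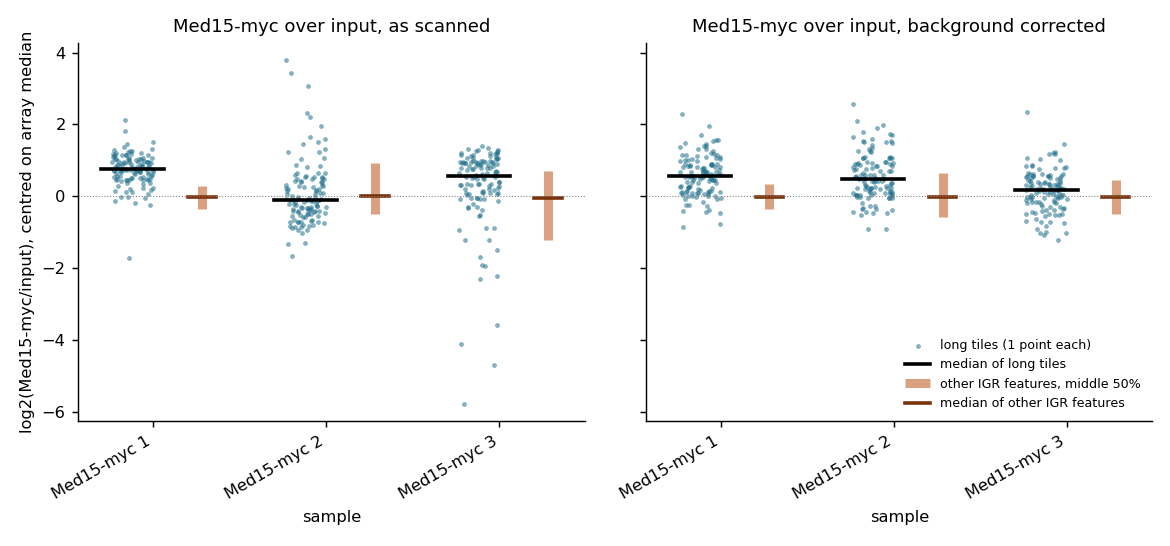
Med15-myc over input (log2, centred per array) in the 3 samples for the tiles and the other IGR features, as scanned and after background correction. As scanned the tile medians are 0.76, −0.10 and 0.57, and after correction all 3 are above 0.

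SPAC1F8.08 had the highest Med15-myc ratio of all tiles. The annotation places this uncharacterised gene between *pdc101*, a putative pyruvate decarboxylase gene of alcoholic fermentation, and SPAC11D3.19. Its tile read 2.13, 1.96 and 1.21 as scanned and 2.28, 2.10 and 2.35 after background correction. All 3 corrected values lie within a narrow band far above the tile medians. The corrected mean was 2.24 ± 0.35 (SE, n = 3; limma, adjusted p = 3.33e-06), the 16th highest of all IGR features, and 2.04 within print grids (adjusted p = 8.02e-05). The ordinary IGR feature that carries the same gene name had a corrected mean of 1.98 (limma, adjusted p = 9.13e-05).

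The other 4 tiles that passed after background correction belong to genes of different roles. The tile of *rpl10-2*, which encodes a protein of the large ribosomal subunit, read 1.56, 1.90 and 0.76 (mean 1.41, adjusted p = 0.0141). *gmh6* (SPBC1289.13c), an alpha-galactosyltransferase gene, read 1.39, 1.26 and 1.18 (mean 1.28, adjusted p = 0.0297). *pil1* (SPCC736.15), which encodes a core protein of the eisosomes under the plasma membrane, read 0.99, 1.48 and 1.17 (mean 1.21, adjusted p = 0.0432). *pdi3* (SPBC3D6.13c), a disulfide isomerase gene, read 1.53, 2.56 and −0.30, so 1 sample lay below 0 (mean 1.26, adjusted p = 0.0494 by limma, and 0.118 within print grids).

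Other tiles among the 6 highest as scanned did not pass. Among them are those of the biotin transporter gene *vht1* (1.39, 1.04 and 1.15), the PP2C phosphatase gene *ptc2* (1.12, 1.5 and 0.95) and *gap1*, a GTPase-activating protein gene (0.88, 3.08 and −0.87). For *gap1* the mean rests on the Cy5 sample. The lowest 4 as scanned rest on Med15-myc 3, where *cup1* (SPBC17G9.13c) read −5.78, *pgm1* (SPBC32F12.10) −4.69, *cps1* −4.12 and *matmc* −2.29. The ChIP intensity of these 4 tiles in that sample was 27.75, 21.0, 75.75 and 359.5. The local background had a median of 391.75 over the whole array. By its own local background, however, only 1 of all the tiles was not above it in that channel. After background correction their means were 0.43, 0.55, 0.56 and −0.04.

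H3 over input in the deletion strains was above the other features at the median tile in 4 of 5 samples, set beside all other features. As scanned, it was 0.28 and 0.77 in Δmed15 and 2.09, 0.75 and −0.94 in Δhrp1, and after background correction 0.57 and 0.41, and 1.18, 0.38 and −0.37. Δhrp1 3, the Cy5 sample of its strain, was the low one: 17 tiles lay above the median of the other features as scanned and 41 after correction, against 111 and 107 in Δhrp1 1. Among features brightest in input the tiles of Δhrp1 3 were slightly above the others, with medians of −1.20 against −1.32 as scanned and −0.42 against −0.68 after correction. Within print grids they were below as scanned, at −1.25 against −1.01, and above after correction, at −0.49 against −0.59. Δhrp1 1 and Δhrp1 3 correlated with r of −0.52 over all features as scanned and 0.13 after correction. With loess normalisation the median tile of Δhrp1 3 was 0.07, against 0.66 and 0.32 in the other Δhrp1 samples. Without Δhrp1 1 the fitted median tile of this strain was −0.06, and without Δhrp1 3 it was 1.11, beside 0.40 with all samples. In Δmed15 it was 0.52, with −0.32 without Δmed15 1 and 1.42 without Δmed15 2. Each of these fits with a sample left out holds a single Δmed15 sample and takes its dye term from the Δhrp1 samples. The median tile of the remaining sample itself was 0.77 and 0.28.

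**Figure D3:**
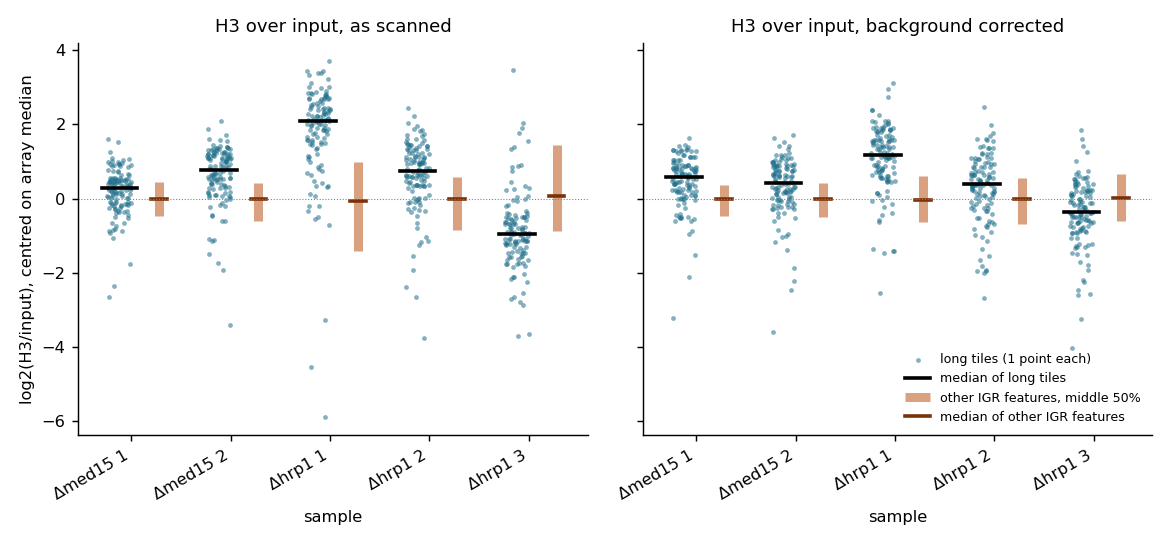
H3 over input (log2, centred per array) in the 5 deletion samples for the tiles and the other IGR features, as scanned and after background correction. The tile median is below 0 in Δhrp1 3 alone, at −0.94 as scanned and −0.37 after correction.

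The mean ratio of each strain was tested against 0, the median IGR feature, and not against wildtype, which has no ratio. Higher and lower in these calls therefore give a level among features and not a change on deletion. As scanned, no tile passed in either strain (limma, Benjamini-Hochberg): 0% of 4949 features were called in Δmed15 and 0% of 4945 in Δhrp1. At an unadjusted p below 0.05 there were 3 tiles in Δmed15, all lower, beside 3.13% of features, and 13 in Δhrp1, 7 higher and 6 lower, beside 10.5%. After background correction, 6 tiles passed as higher and 4 as lower in Δmed15, beside 0.485% and 6.06% of all features. In Δhrp1, 18 tiles passed as higher and 8 as lower, beside 6.34% and 10.3% of all features. These are 5% and 3.33% of the tiles in Δmed15 and 15% and 6.67% in Δhrp1. With all samples the share of tiles called higher was above the background in both strains and the share called lower below it. Within print grids 1 tile passed as higher and 3 as lower in Δmed15, beside 0.141% and 4.36% of features. In Δhrp1 there were 14 and 8, beside 5.31% and 9.44%. The background-corrected counts depended on single samples. In Δmed15 without Δmed15 1, 0 tiles passed as higher and 3 as lower, beside 0% and 0.869% of features, so that the share called lower was then above the background. Without Δmed15 2 there were 1 and 1, beside 0.0404% and 0.687%, and without Δhrp1 1 there were 13 and 4, beside 1.41% and 7.82%. In Δhrp1 without Δhrp1 1, 7 tiles passed as higher and 12 as lower, beside 7.74% and 11.6%, so that the share called higher was then below the background. Without Δhrp1 2 there were 8 and 5, beside 1.78% and 5.09%, and without Δhrp1 3 there were 4 and 1, beside 0.202% and 1.35%. limma gave every feature the same standard error in this background-corrected fit, 0.408 in Δmed15 and 0.345 in Δhrp1. A tile's own spread between samples therefore does not enter the adjusted p values of this fit. Centred within print grids as well, the standard errors lay between 0.353 and 0.552 in Δmed15 and between 0.299 and 0.466 in Δhrp1.

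SPAC1F8.08 had the lowest H3 ratio of the tiles in both Δmed15 samples and in the mean of the 5 samples after background correction. In the fitted Δhrp1 mean, which is adjusted for dye, *pma1* was slightly lower. The Δhrp1 means given for other tiles are fitted in the same way, and can differ from the plain average of the samples. The background-corrected values of SPAC1F8.08 were −3.21 and −3.59 in Δmed15 and −2.56, −2.0 and −2.20 in Δhrp1. Every sample was thus far below the median feature. The fitted means were −3.40 ± 0.409 (SE, n = 2; limma, adjusted p = 1.14e-13) and −2.22 ± 0.345 (SE, n = 3; limma, adjusted p = 1.62e-08). It passed as lower in both strains with each sample left out in turn after background correction. The ordinary feature of the gene read −3.18 in Δmed15 and −2.23 in Δhrp1.

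The other 3 tiles that passed as lower than the median feature in Δmed15 did so in Δhrp1 too. The 4 shared tiles are 100% of the Δmed15 list and 50% of the Δhrp1 list. Over all features the shared lower calls were 70.3% and 41.3% of the lists. Both strains share 1 fit and its dye term, so these are descriptions. The tile of *mug155* (SPAC27E2.04c), a gene upregulated in meiosis, read −2.11 and −2.23 in Δmed15 and −1.35, −1.56 and −3.25 in Δhrp1, with means of −2.17 and −2.22 (limma, adjusted p = 1.25e-05 and 1.66e-08). SPAC26F1.11, uncharacterised, read −1.51 and −2.46, and −1.41, −2.67 and −1.93, with means of −1.98 and −1.93. The tile of *rpl36-2*, a large-subunit ribosomal protein gene, read −0.88 and −1.88, and −0.24, −1.66 and −2.25, with means of −1.38 and −1.43; within print grids its Δmed15 value did not pass (adjusted p = 0.0587).

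Another 4 tiles passed as lower in Δhrp1 and not in Δmed15. *pma1*, which encodes the plasma membrane proton pump, read −0.13, −1.81 and −4.01 in Δhrp1 (mean −2.25, limma adjusted p = 1.06e-08) and −0.54 and −0.95 in Δmed15. Without Δhrp1 3 its mean was −0.77 and did not pass. *rps26-1*, a small-subunit ribosomal protein gene, read −1.40, −1.95 and −2.47 in Δhrp1 (mean −1.98, limma adjusted p = 7.07e-07) and −0.53 and −1.0 in Δmed15. *ptr2* and the desaturase gene *ole1* (SPCC1281.06c) had means of −1.15 and −1.14.

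Among tiles that were higher after background correction, *mei2* passed in both strains. Mei2 is the RNA-binding protein that switches fission yeast into meiosis. Its tile read 1.32 and 1.33 in Δmed15 and 3.10, 2.47 and −0.50 in Δhrp1, so that Δhrp1 3 stood opposite to the others. The means were 1.33 and 1.38 (limma, adjusted p = 0.0247 and 0.00132), and within print grids the Δmed15 value did not pass (adjusted p = 0.111). Without Δmed15 1 the fitted Δmed15 value, adjusted for dye, was −0.31, although the remaining Δmed15 sample read 1.33. The dye term of that fit comes from the Δhrp1 samples alone. The ordinary *mei2* feature had means of 0.16 and 0.64 and did not pass.

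The tiles of the kinase gene *nnk1* (SPCC70.05c; means 1.31 and 0.93) and of SPAC1348.10c (1.23 and 0.94) also passed in both strains. The 3 shared tiles are 50% of the higher list in Δmed15 and 16.7% of that in Δhrp1, beside 45.8% and 3.50% for the shared calls of all features. In Δmed15 the vesicle coat gene *sec16* (1.26), SPAC977.17 (1.27) and the kinase gene *oca2* (SPCC1020.10; 1.31) passed as well; of the 6, *nnk1* alone passed within print grids (limma, adjusted p = 0.0336).

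In Δhrp1 the highest fitted means, adjusted for dye, were at SPBC24C6.09c and *fbp1*. SPBC24C6.09c read 2.95, 1.99 and 0.47 (mean 1.64 ± 0.345 SE, limma adjusted p = 7.38e-05), and its ordinary feature also passed, with a mean of 1.22. *fbp1*, which encodes the gluconeogenic enzyme fructose-1,6-bisphosphatase and is repressed by glucose, read 2.72, 0.84 and 1.41 (mean 1.62, limma adjusted p = 8.73e-05). *tre1* (SPBC354.09c) read 1.89, 1.24 and 1.25, with a mean of 1.44. The next were the urea transporter gene SPAC869.03c (1.27), the carboxylesterase family gene SPCC417.12 (1.26), the amidase gene SPAC869.01 (1.24), *msc1* (SPAC343.11c; 1.14), which encodes a Swr1 complex subunit, SPBC1E8.03c (1.10) and SPAC212.02 (1.09). Of these 9, SPAC212.02 did not pass within print grids.

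The 4 tiles with the highest ratio as scanned over all 5 samples were SPBC24C6.09c, *mei2*, *nnk1* and the phospholipase gene *plb4* (SPAC977.09c), and among the lowest were SPAC1F8.08, the glycolytic gene *pgk1* and *mug155*. *pgk1* read 0.13 and −1.16 in Δmed15 and −5.89, −3.75 and 2.04 in Δhrp1 as scanned. In Δhrp1 1 its ChIP intensity was 8.75, below its local background of 20.25. After correction *pgk1* read −0.55 and −1.04, and −1.46, −1.91 and 0.40, and it was not called.

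The 2 deletions were not distinguished at any tile in H3 over input. The difference Δhrp1 minus Δmed15 passed at 0% of 4949 features as scanned, with 0 tiles and 0.606% of features at an unadjusted p below 0.05, and at 0.0606% of features and 0 tiles after background correction (limma, Benjamini-Hochberg). The median tile difference was −0.13 as scanned, and its sign was not stable: it was 0.11 without the dye term and ran from −1.22 (without Δmed15 2) to 0.60 (without Δhrp1 3 or Δmed15 1) with a sample left out. The largest were *pcs2* (1.34), SPAC1F8.08 (0.84) and SPBC24C6.09c (0.70), and among the smallest were *pgk1* (−1.28) and *oca2* (−1.14), each with an adjusted p of 0.999. *pgk1* and SPBC24C6.09c changed sign in other settings, as given in the last section. The calls at *pma1* and *rps26-1* in 1 strain therefore do not show a difference between strains.

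H3 signal in Δmed15 was set beside wildtype in the value table. 0 of the 120 tiles passed, beside 0.226% of 4871 features (limma, Benjamini-Hochberg), and 27 tiles had an unadjusted p below 0.05 in this fit, 13 higher and 14 lower, beside 19% of features. The median tile difference was 0.25, and 0.01 within print grids. The largest were SPBC24C6.09c (3.83), *pma1* (3.73) and SPBP4H10.14c (3.71), and among the smallest were SPBC3B8.08 (−3.08) and *pgk1* (−2.65). Within print grids these 5 were 2.14, 1.85, 1.83, −1.73 and −2.85. Without Δhrp1 1, which enters this fit through the dye term and the residual spread, 17 tiles passed beside 12% of features.

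In Δhrp1 minus wildtype, which shares the wildtype samples, 7 tiles passed as higher and 8 as lower, beside 4% and 8.36% of all features. These are 5.83% and 6.67% of the tiles, so both shares were near the background. The calls moved with the place on the array. Centred within print grids, 0 tiles passed in either direction, with 7 higher and 15 lower at an unadjusted p below 0.05, beside 0.534% and 24.5% of features. The calls over all features went from 195 higher and 407 lower to 6 and 20. With wildtype 1 or wildtype 2 left out no tile passed, beside 0.0412% and 0.0411% of features. Without Δhrp1 1 there were 27 calls beside 18.8%, and without Δhrp1 2 there were 6 beside 6.22%. Beyond these values, the part of the print grids in the result was not tested.

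Among the 7 higher tiles SPBC24C6.09c had the largest difference. The wildtype pair read −0.99 and −3.99 and the Δhrp1 samples 3.45, 1.57 and 0.41, and the difference was 4.65 ± 1.00 (SE; limma, adjusted p = 0.0232). Within print grids it was 3.22 (adjusted p = 0.0781). The other 6 were *tre1* (3.01), SPCC18B5.02c (2.92), the iron oxidase gene *fio1* (2.86), SPBP4H10.14c (2.70), *cps1* (2.67) and the zinc finger gene *zfs1* (2.58). Within print grids these 6 were between 0.53 and 1.12.

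Among the 8 lower tiles, *pgk1* read −0.07 and 0.13 in wildtype and −5.58, −4.60 and −1.49 in Δhrp1. Its difference was −4.56 (limma, adjusted p = 0.0182), and −5.43 within print grids (adjusted p = 0.0544). Since the ChIP intensity in Δhrp1 1 was below its local background, the size of this difference is not a measured level there, and the corrected H3 over input ratio of *pgk1* in Δhrp1 was not called. Others of the 8 were the oligopeptide transporter gene *isp4* (−3.14), *ldb1* (SPBC30B4.03c; −2.50), *gap1* (−2.32), *mug112* (SPCC338.02; −2.29), the calcium pump gene *pmc1* (SPAPB2B4.04c; −2.03) and SPCP20C8.03 (−2.0). Within print grids *isp4* was at −0.68, *pmc1* at −0.31, and *mug112* changed sign to 0.17.

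For 107 tiles the array also holds an ordinary IGR feature of the same gene name. The tile was above its ordinary partner in H3 over input in 87 pairs and below in 20 (background corrected, mean of 5 deletion samples), with a median difference of 0.54. In Med15-myc over input it was above in 80 and below in 27, with a median difference of 0.48, and in wildtype H3 signal above in 69 of 106 pairs, with a median difference of 0.96. Across the genes the tile and its partner correlated in H3 over input with a Spearman rho of 0.56, and in Med15-myc with 0.07 and in wildtype H3 signal with 0.19. Within print grids these were 0.50, 0.29 and 0.22, and the wildtype H3 signal of the tile was above in 78 pairs, with a median difference of 1.33. Partners are on the same arrays and genes are not replicates, so these are descriptions.

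**Figure D4:**
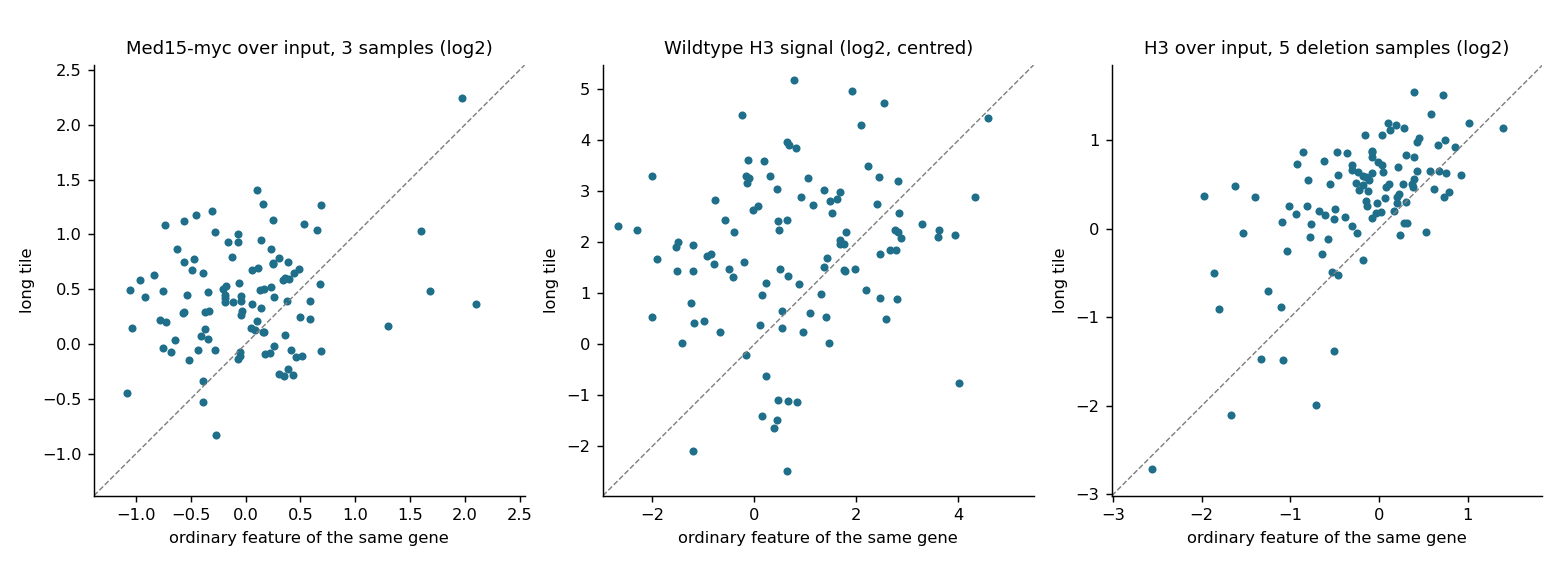
Tiles set beside the ordinary IGR feature of the same gene, each point a gene, for Med15-myc over input (left) and H3 over input (right) after background correction and for wildtype H3 signal (middle), all log2 means over samples. Points above the dashed diagonal are genes whose tile is higher, 80 of 107 for Med15-myc, 69 of 106 for wildtype H3 signal and 87 of 107 for H3 over input.

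Med15-myc ran weakly together with H3 over input in the deletion strains and weakly against H3 signal in wildtype. After background correction the Spearman rho of Med15-myc with H3 over input was 0.24 in Δmed15 and 0.41 in Δhrp1 over the 120 tiles, beside 0.25 and 0.28 over the other features. With wildtype H3 signal it was −0.15 over the tiles and −0.15 over the others. Med15-myc ran against input brightness, with a rho of −0.54 over the tiles and −0.46 over the others. The 2 strains ran together in H3 with 0.67 over the tiles and 0.67 over the others. The Med15-myc and H3 samples are separate hybridisations of the same spots, and these values share dyes and spot brightness. Input brightness comes from the same arrays as the ratios. SPAC1F8.08 stood apart from this trend, with the highest Med15-myc mean and the lowest H3 mean. *mug155* had the lowest Med15-myc mean of all tiles (−0.83, limma adjusted p = 0.2, not passed) together with low H3.

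**Figure D5:**
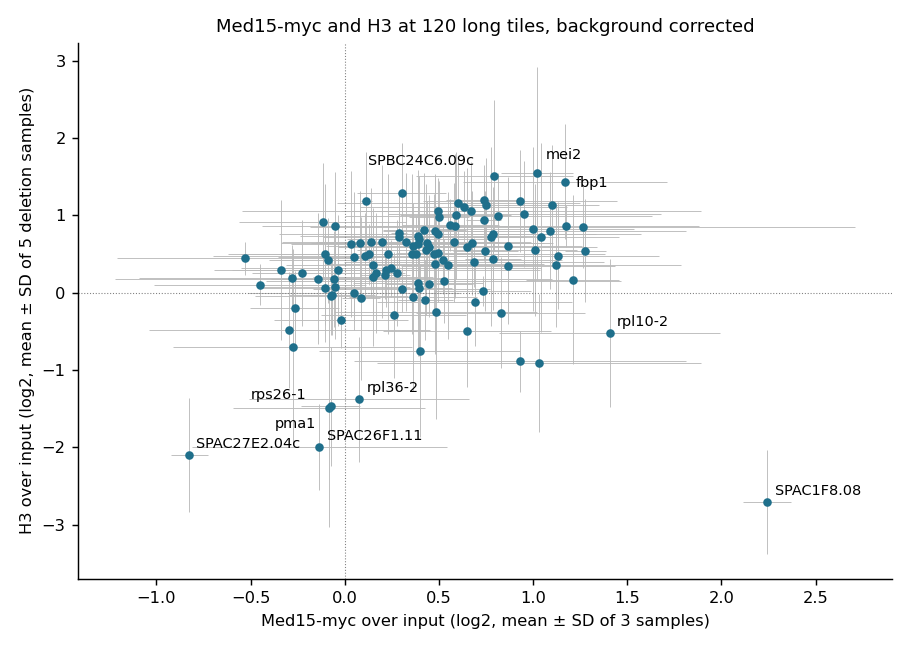
Mean Med15-myc over input (x, log2, 3 samples) and mean H3 over input (y, log2, 5 deletion samples) of the 120 tiles after background correction, with the SD over samples as bars. SPAC1F8.08 lies alone at 2.24 and −2.71, and *mug155* is marked by its systematic name.

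Gene lists hold few tiles. Of the nutrient transport and sensing list 9 tiles were measured, among them *fbp1*, *fio1*, *isp4*, *pma1* and *ptr2*. Their median Med15-myc ratio was 0.36 and their median H3 ratio 0.25 after background correction, beside 0.43 and 0.49 for all 120 tiles and 0.03 and 0.0032 for the other features. Within print grids the medians of the 9 were 0.16 and 0.075, beside 0.45 and 0.43 for all tiles. In Δhrp1, 1 of these 9 passed as higher (*fbp1*) and 2 as lower (*pma1* and *ptr2*) in H3 over input after correction. Over all features the shares were 6.34% and 10.3%, so these few calls do not set the list apart. The mating and meiosis list holds *matmc*, *mei2* and *ste7*. Of these *mei2* passed as higher in both strains, beside 0.485% of all features in Δmed15 and 6.34% in Δhrp1. The lists for cell wall (3 tiles), cell cycle (2), transcription factors (1) and stress response (1) held no tile that passed in Med15-myc or in H3 over input in these fits.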

How the data were processed

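Labels put 3 Med15-myc ChIP samples and 7 H3 ChIP samples on arrays of intergenic regions. Per the file headers, the deposited scanner tables hold uncorrected intensity of each spot and of its local background, in ChIP and in input. The deposited value table holds log2 values, close to log2 of the ChIP channel less background, with a floor; this was found by setting it beside the scanner tables of the deletion samples (Pearson correlation 0.983 to 0.999), and only this table was used for wildtype. The array build and the spotted sequences are not given in the sources used here. Replicates are called biological in the labels without mention of separate cultures, so p-values measure at most the spread between these samples; after normexp, limma pooled this spread over all features for H3 over input.

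Ratios were log2 of ChIP over input intensity as scanned, duplicate spots averaged, 12 control features and 208 features with names marked Missing left out, and the median of each array was subtracted. Fits over all IGR features used lmFit and eBayes of limma 3.58.1 (R 4.3.3), with dye of the ChIP DNA as a covariate for H3, two-sided p-values, Benjamini-Hochberg adjustment and a threshold of 0.05. Alternatives were normexp background correction (offset 50), loess after it, dim features left out, the dye term, each sample left out, and, chosen after seeing the data, centring within print grids and normexp with samples left out. The fits were run on simulated log2 values with known differences, as a check of the estimates alone. That simulation held no dye, print grid or background effect, so it cannot show how the calls depend on these. Floor values of the value table counted as missing. Gene names were joined to the RefSeq gene table of ASM294v3. Tiles, lists and tests were chosen with earlier results of these data known. Named tiles are those past the threshold in a comparison, up to 10 each way, and the extremes of each measure; 1 tile that met this rule is not reported here. The precision of a value is limited by the number of arrays.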

Additional observations from a re-analysis of the deposited data

How the results depend on the processing

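Counts here are tiles of 120 past a limma Benjamini-Hochberg adjusted p of 0.05, and values are log2. For Med15-myc over input, 0 tiles passed as scanned, with dim features left out, with a dye term, within print grids and with each sample left out. The count was 5 after normexp and 13 with normexp within print grids, with the shares of all features given above. It was 13 with loess after normexp, beside 79 higher and 63 lower of 4949 features. With loess and replicate 1, 2 or 3 left out it was 1, 1 and 28, beside 15, 46 and 194 features called higher. With normexp and replicate 1, 2 or 3 left out it was 1, 7 and 3. For H3 over input in Δmed15, 0 passed as scanned, 10 with normexp and 4 with normexp within print grids. With loess 14 passed, 10 higher and 4 lower, beside 46 higher and 372 lower of 4949 features. Without Δhrp1 1, 2 or 3, loess gave 0, 16 and 15 tiles as higher, beside 4, 86 and 70 features. The fitted median tile with loess was 0.43, and 0.19 and 0.71 without Δmed15 1 and 2. Leaving out Δhrp1 samples as scanned gave 0 to 1. The 1 tile passed as lower, without Δhrp1 3, beside 0 higher and 7 lower of 4949 features. With normexp it gave 17, 7 and 7 without Δhrp1 1, 2 and 3, beside 70, 13 and 15 features called higher and 387, 255 and 263 called lower. The fitted median tile, adjusted for dye, ran from −0.32 to 1.42 as scanned with a sample left out. With normexp it was −0.15 and 1.10 without Δmed15 1 and 2. For H3 over input in Δhrp1 the counts were 0 as scanned, 26 with normexp and 22 with normexp within print grids. With loess 29 passed, 21 higher and 8 lower, beside 315 higher and 565 lower of 4949 features. Without Δhrp1 1, 2 or 3, loess gave 3, 16 and 7 tiles as higher, beside 87, 199 and 49 features. Leaving out Δhrp1 samples as scanned gave 0 to 1. The 1 tile passed as lower, without Δhrp1 3, beside 2 higher and 65 lower of 4943 features. With normexp it gave 19, 13 and 5 without Δhrp1 1, 2 and 3, and 18 and 18 without Δmed15 1 and 2. Each 18 was 10 higher and 8 lower, beside 224 higher and 450 lower of 4949 features. The fits without a Δmed15 sample keep all Δhrp1 samples. The difference between the deletions kept 0 tiles in each of these settings.

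For H3 signal in Δmed15 minus wildtype, 0 tiles passed. Without the dye term 5 passed, beside 57 higher and 39 lower of 4871 features. When every array was given an equal spread 13 passed, beside 163 higher and 229 lower. Leaving out samples gave 0 to 17. The median tile was 0.25, and 0.0195 without the dye term, 0.00968 within print grids and −0.00699 to 0.731 with a sample left out. For Δhrp1 minus wildtype, 15 passed, and 0 within print grids. With floor values kept 6 passed, beside 95 higher and 245 lower of 4871 features. Arrays of equal spread gave 35, beside 358 higher and 576 lower. Leaving out samples gave 0 to 27. The cause of these shifts was not tested.

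The labels do not say that a replicate number marks a shared culture or day, and same-numbered samples deviated from their group means with correlations of −0.591 and 0.360 in H3 over input and 0.117 to 0.202 in H3 signal. With the replicate number as a block, 5 tiles passed in Δmed15 minus wildtype, beside 83 higher and 136 lower of 4871 features. In Δhrp1 minus wildtype 24 tiles passed, beside 382 higher and 788 lower. Between the deletions, block and dye together left no residual degree of freedom, and the replicate block without the dye term gave 0 tiles.

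Some single tiles changed sign in the fitted values, which are adjusted for dye. With a Δmed15 sample left out, the dye term comes from the Δhrp1 samples alone. A fitted Δmed15 value can then differ from what the remaining sample read. As scanned with a sample left out, in Δmed15, *mei2* ran from −0.53 (without Δmed15 1) to 2.88, *sec16* from −0.27 (without Δmed15 1) to 2.72 and *rpl36-2* from −2.72 to 0.17 (without Δmed15 2). With normexp and without Δmed15 1, *mei2* was −0.31. In Δhrp1, *ptr2* ran from −1.73 to 0.016 and *rpl36-2* from −1.80 to 0.10, both highest without Δhrp1 3. In the difference between the deletions, SPBC24C6.09c ran from −0.69 (without Δmed15 2) to 1.75, and was −0.81 with normexp without Δmed15 2. In that difference *pgk1* was 0.25 with loess and 0.037 with normexp, and ran from −3.67 to 1.91 (without Δmed15 2) as scanned. With normexp it was 0.038, 0.27 and 0.95 without Δhrp1 1, Δhrp1 2 and Δmed15 2. In Δhrp1 minus wildtype, *mug112* was 0.17 within print grids. The small number of arrays, 2 or 3 a strain, and the high local background of the Cy5 channel limit what these data resolve.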
